A study of Mus musculus with 16 samples.

Results

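The genes described here are 10 members of the Wnt pathway: the secreted ligands Wnt3, Wnt3a, Wnt5a, Wnt5b and Wnt6, the nuclear factor Lef1, the pathway targets Axin2 and Sp5, and the secreted inhibitors Dkk1 and Sfrp1. They were chosen by name and make up 10 of the 29453 genes in the count matrix of a single-cell RNA-seq study of mouse chimeras. All 10 passed the filter on gene names and were measured in every library. Each was followed across the mapped cell types of whole embryos on 3 days of gestation (E7.5, E8.5, then E9.5), in host cells and in Stat3 null cells of the same embryos.

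Canonical Wnt ligands bind a Frizzled receptor together with an LRP co-receptor, which keeps β-catenin from being degraded and lets it act with TCF/LEF factors on target genes. In the gastrulating embryo this signaling is known for setting up the primitive streak, keeping caudal progenitors and presomitic mesoderm going, and patterning the dorsal neural tube and limb ectoderm. Wnt3 and Wnt3a are the ligands best known for this route, whereas Wnt5a and Wnt5b signal mostly without β-catenin. Axin2 and Sp5 are direct targets that also dampen the pathway, Dkk1 blocks the LRP co-receptor, and Sfrp1 binds Wnt ligands outside the cell.

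On GRCm38 the ligand genes lie at chr11:103774150-103817957 (Wnt3, plus strand), chr11:59248033-59290752 (Wnt3a, minus), chr14:28504750-28527448 (Wnt5a, plus), chr6:119432531-119544347 (Wnt5b, minus) and chr1:74771892-74785322 (Wnt6, plus). The factor and target genes lie at chr3:131110471-131224356 (Lef1, plus), chr11:108920349-108950783 (Axin2, plus) and chr2:70474923-70477729 (Sp5, plus). The inhibitor genes lie at chr19:30545863-30549665 (Dkk1, minus) and chr8:23411502-23449632 (Sfrp1, plus).

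The null cells derived from tdTomato-expressing embryonic stem cells in which part of Stat3 had been replaced by a neo cassette. They came from 1 line on the CD1 background, were injected into WT CD1 blastocysts, and were separated from the host cells of each pool by tdTomato fluorescence. The WT group is therefore the host tissue of the chimeras and not a separate WT line, and it includes extraembryonic lineages that injected stem cells rarely enter. Per the labels, pools held about 10 embryos at E7.5, about 4 at E8.5 and 1 at E9.5. The study's account sorts the E7.5 embryos into large and small ones. The libraries of a genotype at that stage may therefore differ in embryo size and not be like replicates. Each genotype had 2 libraries at E7.5, another 2 at E8.5 and a further 4 at E9.5, named A to D within each group here. Each pool gave a WT and a null library per the labels, but the cell table does not say which libraries share a pool, so the letters are only names and the tests do not use that pairing. The study's account names fewer E9.5 embryos than there are libraries of each genotype, so some of these may share an embryo and p-values at that stage may be too small.

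The 16 libraries held 360 to 4327 analysed cells and 20682659 to 138613245 UMIs each, with a median of 18205 to 57791.5 UMIs per cell, for 37841 cells in 87 mapped types. Stat3 stood at 6.14 to 9.31 CPM (UMIs per 1000000 UMIs of the same cells) in the WT libraries and at 1.16 to 2.53 CPM in the null libraries. The 3′ tags of this assay can lie beyond the replaced part of the gene, so that level does not by itself show the deletion. The E9.5 WT libraries C and D shared 292 cell barcodes, of which 3.42% had the same mapped type in both, and no other pair of libraries shared more than 8. Type names were carried over from an atlas: the Visceral endoderm, Amniotic ectoderm, NMPs (neuromesodermal progenitors) and Dorsal hindbrain progenitors led the marker lists of their own lineages, and the Visceral endoderm also led the node and notochord list. The E7.5 Intermediate mesoderm was among the highest 3 types for primitive streak, caudal and presomitic markers, and the E9.5 Somitic mesoderm led the presomitic list. The E8.5 Presomitic mesoderm was not among the highest 3 of that list. The E9.5 Limb ectoderm came second on the extra-embryonic ectoderm list. The Kidney primordium led the placode list, whose highest 3 did not include the Placodal ectoderm. All these names are used below only as labels.

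Among the ligands, Wnt3 was highest, of the ranked types, in that labelled Caudal epiblast at E7.5 and in that labelled Limb ectoderm later. A type was ranked at a stage only if at least 2 WT libraries held enough of its cells. At E7.5 the 11 ranked types did not include those labelled Primitive Streak and Nascent mesoderm. Here and below, the highest type is therefore the highest of those ranked, and not of the whole embryo. At E7.5 its highest type was the Caudal epiblast, with 6.51 and 22.0 CPM in WT libraries A and B and 5.22 and 11.4 in null libraries A and B. At E8.5 the highest type was the Limb ectoderm, with 44.4 and 61.5 CPM in WT, and 17 of 36 ranked types had no Wnt3 UMI in WT. At E9.5 the Limb ectoderm again led with 60.8 CPM in WT library A and 103 in D, against 48.8 and 61.9 in null A and B, and the Dorsal hindbrain progenitors followed with 39.4, 37.9, 43.3 and 41.4 CPM. The WT libraries of these leading types did not overlap with those of the next type at E8.5 and E9.5, and did overlap at E7.5. Levels are compared between cell types of the same gene and not between genes. Over the 10 genes and 3 stages, the WT libraries of the highest type were apart from those of the next in 13 of 30 cases, at all 3 stages for Lef1 and at none for Wnt5a and Wnt5b, so a type named below as the highest has the highest mean and may overlap with the next.

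Wnt3a, the ligand that keeps caudal progenitors in place, was at 0 in more types at E8.5 than any other of the 10 genes. It was highest in the Caudal epiblast at E7.5 (26.6 and 33.9 CPM in WT, 30.4 and 38.9 in null) and in NMPs at E8.5 (14.6 and 28.5 in WT, 11.99 in the only null library with enough cells). At E9.5 the Dorsal hindbrain progenitors led, with 28.3, 31.2, 39.7 and 29.8 CPM in WT and 28.5, 33.6, 37.2 and 38.4 in null. In 19 of 36 types at E8.5 no Wnt3a UMI was found in WT cells. The caudal and the hindbrain positions were both present at E8.5, when NMPs, Presomitic mesoderm (18.9 and 16.2 CPM) and Dorsal hindbrain progenitors (11.6 and 16.4) overlapped in their libraries.

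Wnt5a and Wnt5b, the ligands of the β-catenin-independent branch, were found in every ranked type. Wnt5a stood at 72.8 and 56.6 CPM in the E7.5 Intermediate mesoderm and at 133 and 123 in the E8.5 Lateral plate mesoderm. At E9.5 it was highest in the Limb ectoderm, with 272 and 317 CPM in WT A and D and 274 and 217 in null A and B. Wnt5b peaked in the Caudal epiblast at E7.5 (32.5 and 26.4 CPM in WT) and in the Presomitic mesoderm at E8.5 (62.1 and 74.9), with NMPs close behind (59.9 and 67.7). At E9.5 its maximum, again in the Presomitic mesoderm, was lower and spread more widely, at 20.4 CPM in WT A and 40.5 in D.

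Wnt6, a ligand of surface epithelia, had its highest levels in ectoderm. The Non-neural ectoderm led at E7.5 with 135 and 93.8 CPM in WT, ahead of the ExE (extraembryonic) ectoderm with 86.1 and 84.1. At E8.5 the Amniotic ectoderm stood at 486 and 542 CPM in WT and at 471 and 571 in null. At E9.5 the Epidermis held 716, 785, 603 and 443 CPM in WT and 402, 376, 483 and 478 in null, and these libraries overlapped (log2 fold change -0.54, SE 0.17, adjusted p = 0.601 by edgeR). The median over types was 1.44 CPM at E8.5 and 1.52 at E9.5, far below those ectodermal levels.

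**Figure D1:**
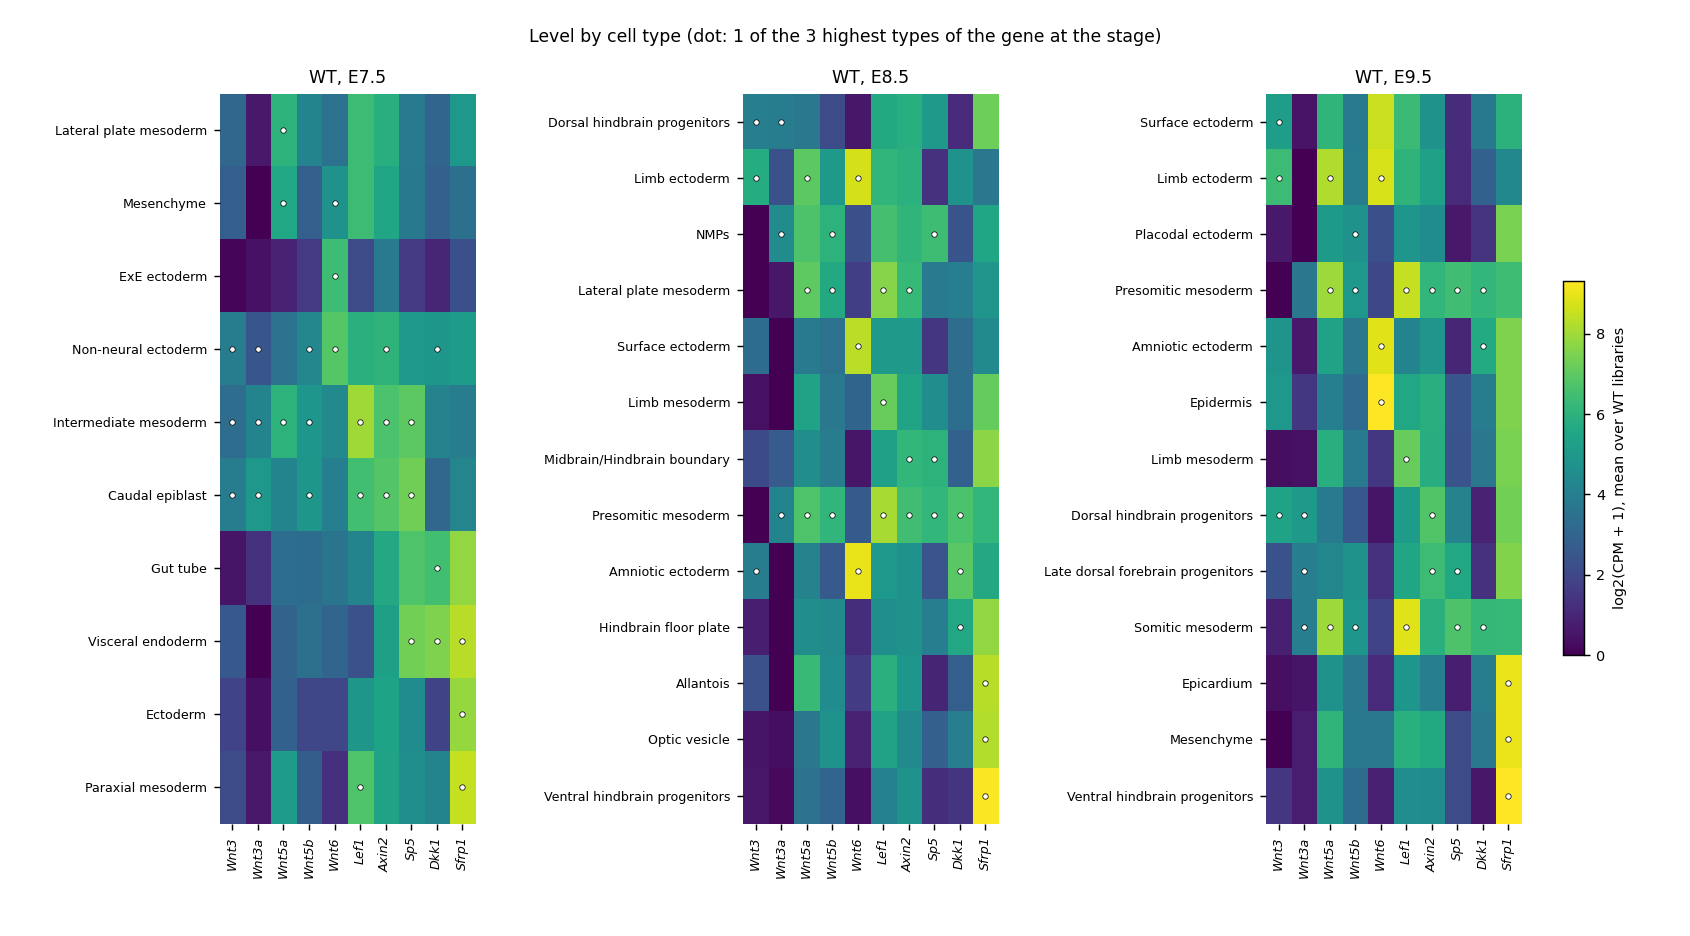
Heat map of the WT level of the 10 genes (columns) in each mapped cell type (rows) that is among the 3 highest of any gene, with a panel for each stage. Colour gives log2(CPM + 1), the mean over WT libraries. White dots mark the 3 highest ranked types of a gene. Examples are Wnt6 in the Epidermis at E9.5 (mean 637 CPM) and Lef1 in the Somitic mesoderm (mean 469 CPM).

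Of the nuclear factor and the targets, Lef1 was highest in a mesodermal type at each stage. The TCF/LEF factor stood at 277 and 226 CPM in the WT Intermediate mesoderm at E7.5, and at 279 and 273 in the WT Presomitic mesoderm at E8.5 (253 in the 1 null library measured). At E9.5 the types labelled Somitic mesoderm and Presomitic mesoderm had 524 and 414 CPM and 405 and 319 CPM in WT A and D. Limb mesoderm came next with 129, 161, 127 and 147 CPM in WT and 134, 144, 121 and 142 in null. To bring cells to the same depth, each was thinned to 10000 UMIs: a Lef1 UMI was then found in 95.4% of E8.5 WT Presomitic mesoderm cells (95% exact binomial interval 88.6 to 98.7) and in 2.48% of E8.5 WT Erythroid cells (1.63 to 3.61). Without thinning the shares were 97.7% and 5.82%, at median depths of 21384 and 31385 UMIs. These intervals cover counting error only, and thinning does not tell free RNA from RNA of the cell itself.

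Axin2, the feedback target that is most often read as a record of canonical signaling, was present in every ranked type, with a median over types of 43.6 CPM at E7.5, 27.3 at E8.5 and 25.3 at E9.5. The Caudal epiblast had the highest mean at E7.5 (112 in both WT libraries, 117 and 84.7 in null), where the Intermediate mesoderm reached 112.7 in a WT library, and the Presomitic mesoderm led at E8.5 (86.5 and 89.6 in WT). At E9.5 the Dorsal hindbrain progenitors, the highest type for Wnt3a as well, had 112, 107, 116 and 97.9 CPM in WT and 146, 86.8, 139 and 98.2 in null, and overlapped with the Late dorsal forebrain progenitors (up to 99.9 in WT). Sp5, a zinc-finger target of β-catenin, had its highest mean level in the Visceral endoderm at E7.5, where WT libraries A and B differed (212 and 106 CPM), followed by the Caudal epiblast (159 and 154). NMPs led for Sp5 at E8.5 with 68.6 and 102 CPM in WT and 33.6 in the 1 null library, and the Somitic mesoderm at E9.5 with 102 and 108 CPM in WT A and D and 71.6 in null A.

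Across 93 combinations of stage and WT cell type with at least 50 cells, Axin2 and Sp5 had the highest correlation of any pair of the 10 genes (Pearson r = 0.72 of log2(CPM + 1)). Lef1 and Axin2 followed at 0.68, Wnt5b and Lef1 at 0.66, and Wnt5a and Wnt5b at 0.65. Wnt5a with Lef1 and Wnt3a with Axin2 both stood at 0.63, and Wnt3a with Sp5 at 0.62. Types from 1 library share its depth and its cells, so these values are descriptions. The 250 bases before the start of Sp5 (chr2:70474673-70474922, plus strand) and of Axin2 (chr11:108920099-108920348, plus strand), from RefSeq on GRCm38.p6, are shown because these targets were the pair most alike across types. Capitals mark TCF/LEF heptamers:
Sp5: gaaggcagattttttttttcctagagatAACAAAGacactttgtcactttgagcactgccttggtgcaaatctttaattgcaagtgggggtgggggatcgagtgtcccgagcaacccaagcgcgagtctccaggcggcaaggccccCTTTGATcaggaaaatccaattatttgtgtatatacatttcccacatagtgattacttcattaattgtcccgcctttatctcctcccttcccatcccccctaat
Axin2: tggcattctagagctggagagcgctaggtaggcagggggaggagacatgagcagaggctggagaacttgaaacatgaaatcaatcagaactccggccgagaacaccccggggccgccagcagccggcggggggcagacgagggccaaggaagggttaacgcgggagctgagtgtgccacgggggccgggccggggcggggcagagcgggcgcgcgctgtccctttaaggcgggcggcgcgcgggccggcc
The 4 heptamers searched, each on both strands, were the letters CTTTGAA, the letters CTTTGAT, the letters CTTTGTA and the letters CTTTGTT. Sp5 held AACAAAG, the reverse complement of CTTTGTT, at 222 to 216 bases before the start, and CTTTGAT at 104 to 98 bases. The Axin2 window held none. Dkk1 also held 2, in a window that lies partly within the gene span given above. A single match was held by 1 of the annotated promoters of Wnt5b and 1 of Lef1, both of which lie within the spans of their genes. Of 32851 mouse promoters of this length, 14.8% held at least 1 heptamer and 1.43% held 2 or more. The STAT motif TTCNNNGAA was found in 1 of the 13 promoters available for 8 of the genes, a Wnt5b promoter, and in 7.02% of all promoters.

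The inhibitors shared the Visceral endoderm among their 3 highest types at E7.5 and differed in their highest types at the later stages. Dkk1, a secreted antagonist that helps position the head, stood at 106 and 258 CPM in the WT Visceral endoderm at E7.5 and at 51.1 and 129 in the Gut tube, where the libraries overlapped. At E8.5 it was highest in the Amniotic ectoderm, at 131 and 115 CPM in WT and 94.8 and 114 in null. At E9.5 the Somitic mesoderm (21.3 and 123 CPM in WT A and D) and Presomitic mesoderm (43.6 and 98.7) came first. In both, library D stood well above A, so the order of Dkk1 levels at E9.5 was not settled by these libraries.

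Sfrp1, a secreted Frizzled-related protein, was found in every ranked type, with a median over types of 30.4 CPM at E7.5, 89.5 at E8.5 and 154 at E9.5 (11, 36 and 40 types, which differ between stages). At E7.5 the Paraxial mesoderm had 374 and 340.3 CPM in WT, the Visceral endoderm 119 and 511, and the Ectoderm 309.9 and 142, and these libraries overlapped. The Ventral hindbrain progenitors led at E8.5 with 639.6 and 600.0 CPM in WT and 659 and 607 in null. They led again at E9.5, with 558, 717, 625 and 599 CPM in WT and 554, 624, 642 and 893 in null, and overlapped there with Mesenchyme and Epicardium.

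The genes with the most similar pattern over the 93 combinations, among 9808 genes that reached 20 CPM in at least 1, differed between members. Axin2 was most like the Wnt target Tnfrsf19 (r = 0.81), then Sp5 and the pathway inhibitor Nkd1 (0.71). Wnt3a was most like the receptor Fzd10 (0.70), Lef1 was most like Ptk7 (0.73), a co-receptor of planar polarity signaling, and the 3 genes most like Sp5 included the transcription factor Gbx2 (0.67). Wnt6 was most like Ldoc1 (0.84), Wnt5a like Tpd52l1 (0.78), Wnt5b like Greb1 (0.75), Sfrp1 like Chd3os (0.76), Wnt3 like Nmnat2 (0.65) and Dkk1 like Fnta (0.60).

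The first comparison of null with WT cells summed all cells of a library. None of the 10 genes was called at any stage by edgeR's quasi-likelihood test with Benjamini-Hochberg adjustment over all genes, where a call needs an adjusted p below 0.05 and a log2 fold change beyond 1 in size. The share of all genes called was 2.36% at E7.5, 0.0278% at E8.5 and 0.573% at E9.5. At an unadjusted p below 0.05 there were 2 of the 10 genes at E7.5, 1 at E8.5 and 0 at E9.5, where 12.9%, 4.56% and 10.4% of all genes passed that limit. DESeq2 called none of the 10 genes at any stage. In such sums fewer cells of a type and less RNA per cell cannot be told apart.

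At E7.5 Lef1 had 80.4 and 79.3 CPM in the null libraries and 67.0 and 61.7 in WT, a log2 fold change of 0.36 (SE 0.09, adjusted p = 0.107 by edgeR). These libraries did not overlap, but with the extraembryonic types left out of the sums Lef1 stood at 85.7 and 71.997 CPM in WT and at 80.5 and 79.3 in null, and they did. Wnt6 had 13.9 and 7.93 CPM in null and 34.3 and 16.3 in WT, a log2 fold change of -1.11 (SE 0.43, adjusted p = 0.386 by edgeR), and its libraries did not overlap either. The ExE ectoderm made up 15.8% and 9.37% of the cells of WT libraries A and B and 0.0921% and 0% of those of null A and B, and it carried 46.7% and 54.1% of the WT Wnt6 UMIs. In the sums without extraembryonic types, Wnt6 stood at 23.2 and 8.70 CPM in WT and at 13.9 and 7.93 in null, and the libraries overlapped. Whether each null library lay below the WT library of its own pool could not be determined.

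At E8.5 Dkk1 had 11.9 and 15.5 CPM in null and 9.45 and 10.5 in WT, a log2 fold change of 0.43 (SE 0.14, adjusted p = 0.984 by edgeR). Its libraries did not overlap, a separation that with 2 against 2 libraries cannot give an exact two-sided permutation p below 0.333. Lef1 (36.4 and 40.9 CPM in null, 42.1 and 43.0 in WT) and Sfrp1 (117 and 118 in null, 122 in both WT libraries) were also apart by that measure. Libraries were thus apart for 2 of the 10 genes at E7.5, 3 at E8.5 and 0 at E9.5, where those of 41.7%, 31.3% and 6.97% of all genes tested were apart, so the counts of the 10 genes did not exceed the background. At E9.5 the 95% interval of every one of the 10 genes lay within 1 log2 unit of no change. Axin2 had 46.3, 33.5, 37.2 and 31.1 CPM in null and 39.6, 33.6, 35.9 and 34.2 in WT, a log2 fold change of 0.04 (interval -0.20 to 0.29). Sp5 had 8.92, 11.7, 9.67 and 11.3 CPM in null and 10.5, 10.99, 9.89 and 10.9 in WT, a log2 fold change of -0.03 (interval -0.25 to 0.19). For all 10 genes at E9.5 the WT and null libraries overlapped.

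**Figure D2:**
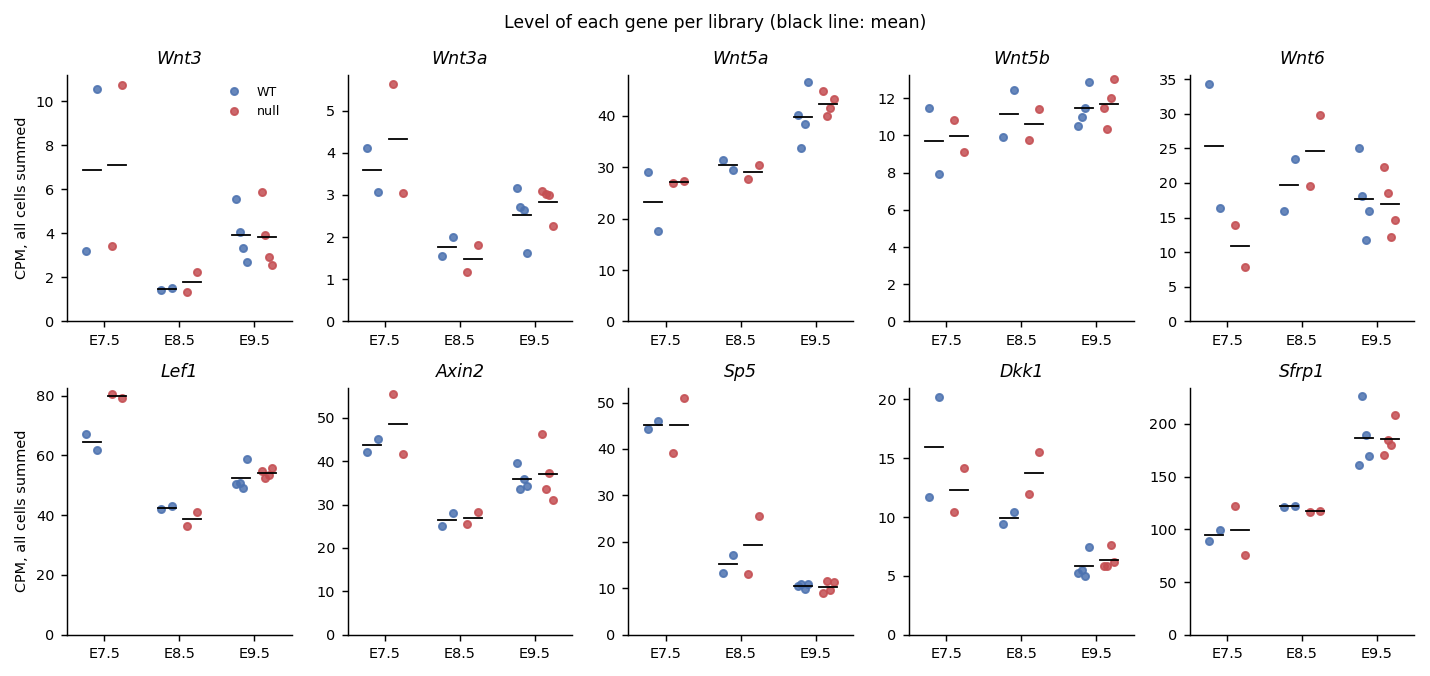
Level of each gene in every library, all cells summed, in CPM on a linear axis, against stage. Blue points are WT libraries, red points null libraries and black lines their means; the libraries of both genotypes overlap for all 10 genes at E9.5, and Wnt6 at E7.5 runs from 16.3 to 34.3 CPM in WT and from 7.93 to 13.9 in null.

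Within cell types the sums keep the number of cells per type out of the comparison. The 10 genes gave 57 tests in 7 types at E7.5, 125 in 20 types at E8.5 and 229 in 37 types at E9.5, and none was called by edgeR, against 0.185%, 0.0622% and 0.121% of all gene and type pairs called. At an unadjusted p below 0.05 there were 5, 14 and 20 of these tests, where 4.05%, 4.32% and 6.26% of all pairs passed that limit, and DESeq2 called 0, 1 and 0. The median log2 fold change of the 10 genes was -0.07, 0.02 and -0.04, and that of all pairs 0.00 at each stage. The 95% interval lay within 1 log2 unit of no change in 30 of 57, 72 of 125 and 157 of 229 tests, and in the remainder it reached beyond that limit.

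With no calls, the 3 pairs with the smallest p at each stage are given. At E7.5 Sfrp1 in the Paraxial mesoderm, its highest type, had 262 and 219.8 CPM in null and 374 and 340.3 in WT, a log2 fold change of -0.52 (SE 0.11, adjusted p = 0.0848 by edgeR). Wnt6 in the Caudal epiblast had 29.2 and 26.3 CPM in null and 15.7 and 14.9 in WT, with a log2 fold change of 0.90 (adjusted p = 0.234 by edgeR). In the Lateral plate mesoderm the order was the other way, with Wnt6 at 3.92 and 6.22 CPM in null and 11.6 and 8.64 in WT. The libraries of the genotypes did not overlap in any of these pairs. Over all tests of the 10 genes within types they were apart in 14 of 57 at E7.5, 36 of 125 at E8.5 and 15 of 229 at E9.5, where 31.2%, 32.4% and 9.51% of all pairs were apart.

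At E8.5 Sp5 in the Pharyngeal endoderm had 47.1 and 53.1 CPM in null and 27.3 and 28.9 in WT, a log2 fold change of 0.79 (SE 0.22, adjusted p = 0.190 by edgeR). Sfrp1 in the YS mesothelium had 13.3 and 12.02 CPM in null and 28.4 and 28.3 in WT, with an adjusted p of 0.459 by edgeR. Axin2 in the Sclerotome had 45.3 and 64.7 CPM in null and 29.6 and 32.6 in WT, with an adjusted p of 0.294 by edgeR. Both targets were at the higher level in null cells of these types, without overlap, but the pairs were picked by their p and neither passed the adjustment. Over all types tested at E8.5, Axin2 was higher in null in 9 of 18 and Sp5 in 12 of 14.

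At E9.5 Sfrp1 in the Amniotic ectoderm had 119 and 109 CPM in null A and B and 192 and 170.0 in WT A and D, a log2 fold change of -0.70 (SE 0.17, adjusted p = 0.174 by edgeR). Dkk1 in the Allantois had 37.4 and 31.8 CPM in null A and B and 1.38, 13.1 and 10.3 in WT A, B and D, a log2 fold change of 1.94 (SE 0.46, adjusted p = 0.609 by edgeR). Lef1 in the Pharyngeal mesoderm had 35.2, 29.9 and 34.9 CPM in null A to C and 53.7, 42.3, 50.1 and 63.9 in WT A to D, with an adjusted p of 0.437 by edgeR. The genotypes did not overlap in these pairs, which rest on 2 to 4 libraries each because the others held 15 cells of the type or fewer.

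By gene, some signs ran the same way over most types, given as counts because types share their libraries. Wnt3, Sp5 and Dkk1 are named because of these counts, and the share of all pairs with each sign is not set beside them. At E7.5 the fitted fold change of Wnt3 was below 0 in 6 of 6 types tested, but its mean CPM was lower in null in only 4 of the 7 types measured in both genotypes, and over all cells its log2 fold change was -0.0082 (95% interval -2.31 to 2.29). By the fitted fold change, Sp5 at E8.5 was higher in null in 12 of 14 types and Dkk1 in 10 of 12. At E9.5 Sp5 was lower in 15 of 19 and Dkk1 higher in 7 of 13. The genotype effect on Sp5 in the mean over types differed by -0.37 (SE 0.22) between E9.5 and E8.5, which was not called. The null libraries differed for Sp5 at E8.5: over all cells it had 13.2 CPM in null A and 25.6 in null B, beside 13.2 and 17.1 in WT A and B. Axin2 was higher in null in 3 of 7, 9 of 18 and 22 of 35 types at the 3 stages, and Lef1 in 5 of 6, 7 of 18 and 17 of 36. Fold changes beyond 1 in size on the log2 scale were found in 3, 8 and 3 of the tests. Dkk1 in the Allantois was among them at both later stages, with 22.9 and 5.47 CPM in null and 7.34 and 4.87 in WT at E8.5, where the libraries overlapped.

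Erythroid cells at E8.5 are also described, a choice made after the values were seen. All 6 genes tested there had a lower level in null cells, with log2 fold changes from -2.61 for Lef1 to -0.37 for Axin2. A gene with few counts can enter the tests through a single genotype, and the 6 are not compared here with all genes of the type. Their shared sign therefore shows no difference by itself. Lef1 had 0.57 and 0 CPM in null and 1.95 and 3.67 in WT (adjusted p = 0.251 by edgeR), and Sfrp1 had 1.91 and 0.80 in null and 3.80 and 8.68 in WT (adjusted p = 0.268). These rest on 14 and 97 Lef1 UMIs and 51 and 214 Sfrp1 UMIs in 725 null and 1048 WT cells. Sfrp1 was called there by DESeq2 (log2 fold change -2.01), which called 0.0681% of all pairs at E8.5. Lef1 and Sfrp1 were both called with no filter on low counts (0.175% of all pairs) and in a fit over all stages (0.0676%). The share of free RNA in these low counts was not tested.

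**Figure D3:**
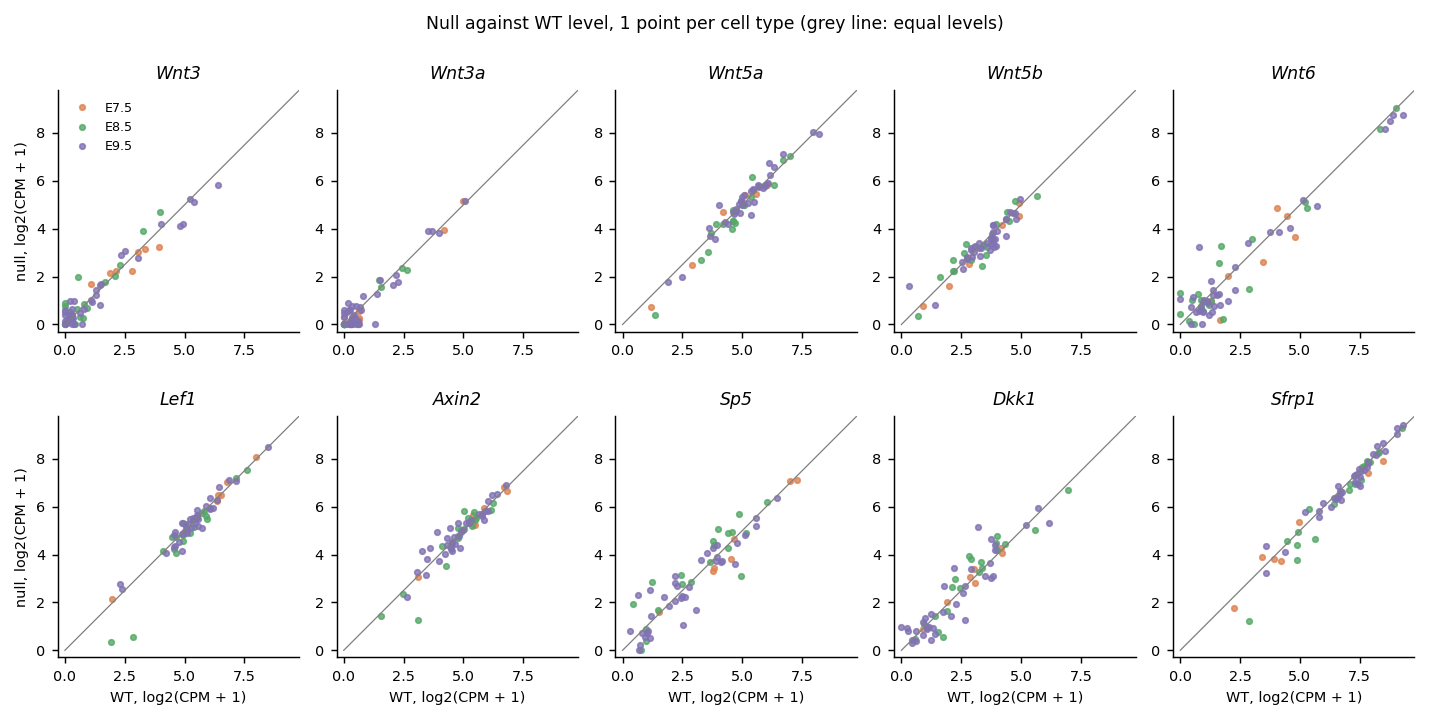
Mean null level against mean WT level, both as log2(CPM + 1), 1 point per cell type with at least 2 libraries of each genotype, coloured by stage (7 types at E7.5, 20 at E8.5 and 37 at E9.5), with the line of equal levels in grey. Points lie along the line for every gene, and the Pearson correlation over types runs from 0.894 for Wnt6 at E7.5 to 0.998 for Lef1 at E7.5.

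Over types, the levels of the 10 genes in null cells went with those in WT cells. Cells of both genotypes were given their types from their expression, so part of this likeness may be built in. The same correlation was not computed for all genes. The correlation of null with WT levels over types was between 0.894 and 0.998 at E7.5 (7 types), 0.896 and 0.977 at E8.5 (20 types) and 0.917 and 0.979 at E9.5 (37 types) for the 10 genes, given as a description. When each type was weighted equally, by the mean over types of log2(CPM + 1) per library (7, 20 and 20 types at the 3 stages), none of the 10 genes differed between genotypes by limma, and none reached an unadjusted p of 0.05. The same fit called 3.99% of all genes, on the adjusted p alone, and 19.5% had an unadjusted p below 0.05. Wnt6 had the largest difference of the 10 genes at -0.17 (SE 0.09, 95% interval -0.37 to 0.02, adjusted p = 0.314), followed by Sfrp1 at -0.16 (interval -0.42 to 0.10). Axin2 was at -0.04 (interval -0.19 to 0.10), Lef1 at -0.07 (-0.19 to 0.06), Sp5 at -0.07 (-0.27 to 0.13), Wnt3a at -0.07 (-0.22 to 0.07) and Wnt5b at -0.05 (-0.17 to 0.07). For genes near 0 in most types the 1 CPM added before the log bounds this difference: Wnt3a had a mean of only 0.48 and 0.49 in the E8.5 WT libraries, so a change of 1 log2 unit could not be seen there. Wnt5a was at -0.02 (-0.21 to 0.18), and Wnt3 at 0.05 (-0.20 to 0.29) and Dkk1 at 0.07 (-0.14 to 0.28) were above 0. Of the 10 genes 8 were below 0, where 63.5% of all genes were and the median of all genes was -0.03.

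The genotype difference was also compared between E9.5 and E8.5 by an interaction term in limma, although only 10 of the 20 types averaged at each of these stages were the same, so stage and cell type are mixed in it. None of the 10 genes was called and none had an unadjusted p below 0.05, where 0.0168% of all genes were called and 2.26% had such a p. The largest differences were -0.37 for Sp5 (SE 0.22) and 0.25 for Lef1 (SE 0.13). With only the 10 shared types, an alternative chosen after the data were seen, they were -0.70 for Sp5 (SE 0.21, adjusted p = 0.9995 by limma) and 0.0099 for Lef1 (SE 0.14), and 0 of the 10 genes were called. In that fit 1 of the 10 genes had an unadjusted p below 0.05 by limma, beside 3.06% of all genes. At E8.5 alone Lef1 stood at -0.27 (95% interval -0.50 to -0.04, adjusted p = 0.642 by limma). At E7.5 alone Sfrp1 stood at -0.25 (interval -0.81 to 0.30), and it was called lower in null without E7.5 null library A (-0.82, SE 0.10, adjusted p = 0.000748 by limma), a value that rests on the 1 null library left and takes it to vary like the other groups. That fit called 351 of 11887 genes, against 93 of 11886 with all libraries.

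**Figure D4:**
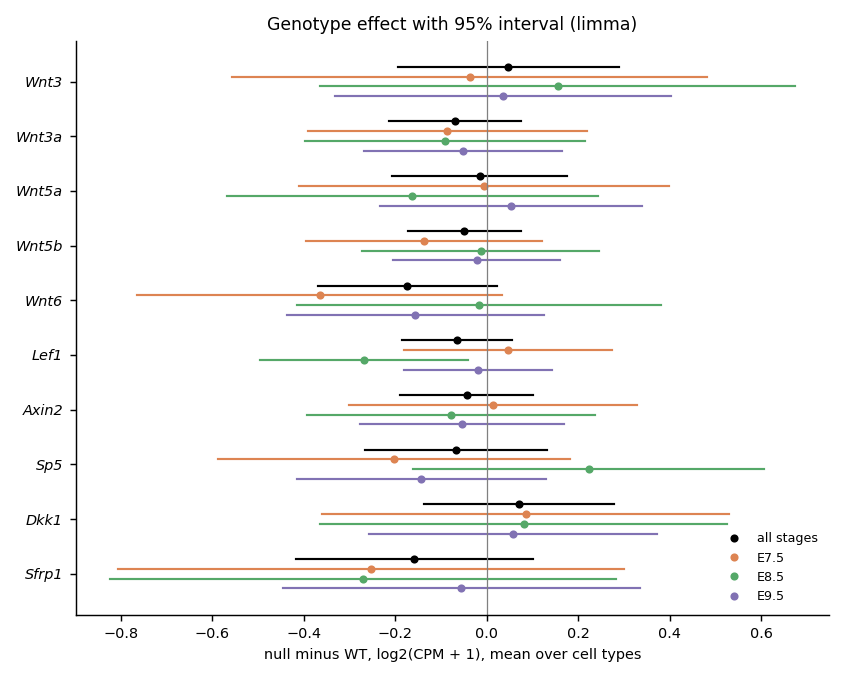
Null minus WT difference of the mean over cell types of log2(CPM + 1) for each gene, with its 95% interval from limma, over all stages (black) and within E7.5, E8.5 and E9.5 (colours). All intervals over all stages include 0 and end between -0.42 and 0.29.

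The next comparison set WT cells of the same type at successive stages side by side. From E7.5 to E8.5 only the Lateral plate mesoderm and the Mesenchyme could be tested. Of 17 tests 7 were called by edgeR, 5 higher and 2 lower at E8.5, where 8.55% of all gene and type pairs were called (5.25% higher and 3.3% lower). In the Lateral plate mesoderm Lef1 rose from 94.6 and 71.8 CPM to 201 and 188 (log2 fold change 1.35, SE 0.14, adjusted p = 1.5e-06 by edgeR). Wnt5b rose there from 22.8 and 12.4 CPM to 48.9 and 49.2 (1.70, SE 0.25), and Wnt6 fell from 11.6 and 8.64 to 1.01 and 3.59 (-1.98, SE 0.49), a call lost with DESeq2 and without E7.5 WT library A or B or E8.5 WT library A. In null cells of that type Lef1 also stood higher at E8.5, at 179.8 to 184 CPM against 76.2 to 99.6, while Wnt6 stood at 3.26 to 13.9 CPM against 3.92 to 6.22.

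In the Mesenchyme Sfrp1 rose from 7.24 and 12.3 CPM at E7.5 to 207 and 167 at E8.5 (log2 fold change 4.33, SE 0.21, adjusted p = 8.58e-09 by edgeR), the largest rise of the 10 genes in these 2 types. Wnt5a rose from 60.2 and 32.2 to 110.4 and 97.5 (1.17, SE 0.25) and Dkk1 from 6.61 and 5.92 to 14.2 and 16.04 (1.28, SE 0.30), calls lost without E7.5 WT library B and with DESeq2, respectively. Wnt3 fell from 5.98 and 5.92 CPM to 0 and 0.33, which are 33 UMIs at E7.5 and 1 UMI at E8.5, a ratio of 35.9 with a counting interval of 6.002 to 1458. The libraries of the stages did not overlap for any of the 7 called pairs. These pairs were picked by their calls, and the share of all pairs apart between stages was not counted. Stage cannot be told apart from the library and the pool, since each library held 1 stage.

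From E8.5 to E9.5, 31 types gave 188 tests, of which 28 were called by edgeR, 20 higher and 8 lower at E9.5, where 3.2% of all gene and type pairs were called (2.17% higher and 1.03% lower). Both comparisons use the E8.5 WT libraries. The 3 ligands Wnt3, Wnt3a and Wnt5a were called only upward, in 4 of 6, 1 of 4 and 6 of 29 types tested. Sfrp1 was called upward in 6 of 30 types, Axin2 in 1 of 28 and Lef1 in 1 of 30. Sp5 was called downward in 4 of 16 types, Wnt5b in 1 of 22 and Dkk1 in 1 of 14, and Wnt6 was called downward in 2 and upward in 1 of 9.

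Wnt3 rose in the Dorsal hindbrain progenitors from 14.0 and 15.4 CPM to 39.4, 37.9, 43.3 and 41.4 (log2 fold change 1.27, SE 0.22, adjusted p = 0.000443 by edgeR), and Wnt3a in the same mapped type from 11.6 and 16.4 to 28.3, 31.2, 39.7 and 29.8 (1.02, SE 0.26). Wnt3 also rose in the Dorsal spinal cord progenitors, the Midbrain/Hindbrain boundary and the Surface ectoderm, calls that were each lost without E8.5 WT library B and without 1 or more other libraries, and in the first 2 of these types also with DESeq2. In the Dorsal hindbrain progenitors the target Sp5 fell from 34.1 and 27.7 CPM to 11.6, 19.2, 17.1 and 19.2 (-1.14, SE 0.25, adjusted p = 0.0036 by edgeR). The stages did not overlap for these 3 genes, which are named because they were called. The Wnt3a call was lost without E8.5 WT library A or E9.5 WT library C, and the Sp5 call without E8.5 WT library A or E9.5 WT library A. Axin2 went from 51.2 and 65.6 CPM there to 112, 107, 116 and 97.9, a log2 fold change of 0.72 (SE 0.14, adjusted p = 0.00134 by edgeR), which passed the adjusted p but not the fold limit of a call.

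Wnt5a rose in the type labelled Limb ectoderm from 116 and 132 CPM to 272 and 317 (log2 fold change 1.15, SE 0.19, adjusted p = 0.00175 by edgeR). In the Pharyngeal mesoderm it rose from 24.8 and 12.5 CPM to 77.3, 75.7, 84.1 and 78.1 (1.88, SE 0.34), and in the Presomitic mesoderm from 113 and 99.9 to 276 and 221 (1.02, SE 0.15), where the call was lost without E8.5 WT library B or E9.5 WT library A. The other rises were in the Spinal cord progenitors, the Surface ectoderm and the Ventral hindbrain progenitors. In the Presomitic mesoderm Wnt5b went the other way and fell from 62.1 and 74.9 CPM to 20.4 and 40.5 (-1.30, SE 0.28, adjusted p = 0.0141 by edgeR), a call that was lost with DESeq2 and without E8.5 WT library A or B or E9.5 WT library A. The difference between Wnt5a and Wnt5b was not tested.

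Wnt6 had no UMI in 667031 UMIs of the E8.5 WT Thyroid primordium and stood at 50.2, 67.4 and 35.8 CPM in E9.5 WT libraries A, B and D (75 UMIs), at least 10.7-fold higher when the E8.5 group is set to the 3 counts that a count of 0 allows. It fell in the Mesenchyme, from 31.7 and 40.6 CPM to 6.17, 15.6, 17.7 and 9.65 (log2 fold change -1.74, SE 0.26), and in the Limb mesoderm. Sp5 fell in the Limb mesoderm from 16.1 and 29.4 CPM to 2.996, 4.81, 3.44 and 6.23 (-2.41, SE 0.33, adjusted p = 0.000455 by edgeR), its largest called change, and in the Mesenchyme and Pharyngeal endoderm. Lef1 rose in the Pharyngeal endoderm from 24.2 and 21.2 CPM to 63.2, 71.2 and 61.2 (1.35, SE 0.17), a mapped type in which Sp5 fell. Axin2 rose in the Branchial arch neural crest from 10.6 and 6.76 CPM to 25.6, 13.2, 23.6 and 22.5 (1.04, SE 0.27, adjusted p = 0.00698 by edgeR), a call lost without E8.5 WT library B or E9.5 WT library A or C. None of these libraries overlapped between stages, but the pairs were picked by their calls and no share of all pairs was counted.

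Of the inhibitors, Sfrp1 rose in the Mesenchyme from 207 and 167 CPM to 528, 539.6, 604 and 441 (log2 fold change 1.37, SE 0.12, adjusted p = 4.02e-06 by edgeR). It rose in the Amniotic ectoderm from 65.3 and 32.1 CPM to 192 and 170.0 (2.01, SE 0.26), where Dkk1 fell from 131 and 115 to 54.6 and 46.8 (-1.29, SE 0.22). In null cells of the Amniotic ectoderm Sfrp1 stood at 19.4 to 28.2 CPM at E8.5 and at 109 to 119 at E9.5. The other Sfrp1 rises were in the Pharyngeal endoderm, Placodal ectoderm, Surface ectoderm and Thyroid primordium. Leaving out E8.5 WT library B lowered the calls of this stage comparison from 28 to 18, the lowest count without any single library, and the share of all pairs called from 3.2% to 1.7%. Of the 28 called pairs, 12 were called in every alternative that could be run for them (10 for 4 pairs and 9 for the other 8, whose types did not have more than 50 cells in enough libraries): Wnt3 in the Dorsal hindbrain progenitors, Wnt5a in the Limb ectoderm and Pharyngeal mesoderm, Wnt6 in the Mesenchyme and Thyroid primordium, Lef1 in the Pharyngeal endoderm, Sp5 in the Limb mesoderm and Mesenchyme, Dkk1 in the Amniotic ectoderm, and Sfrp1 in the Amniotic ectoderm, Mesenchyme and Pharyngeal endoderm.

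**Figure D5:**
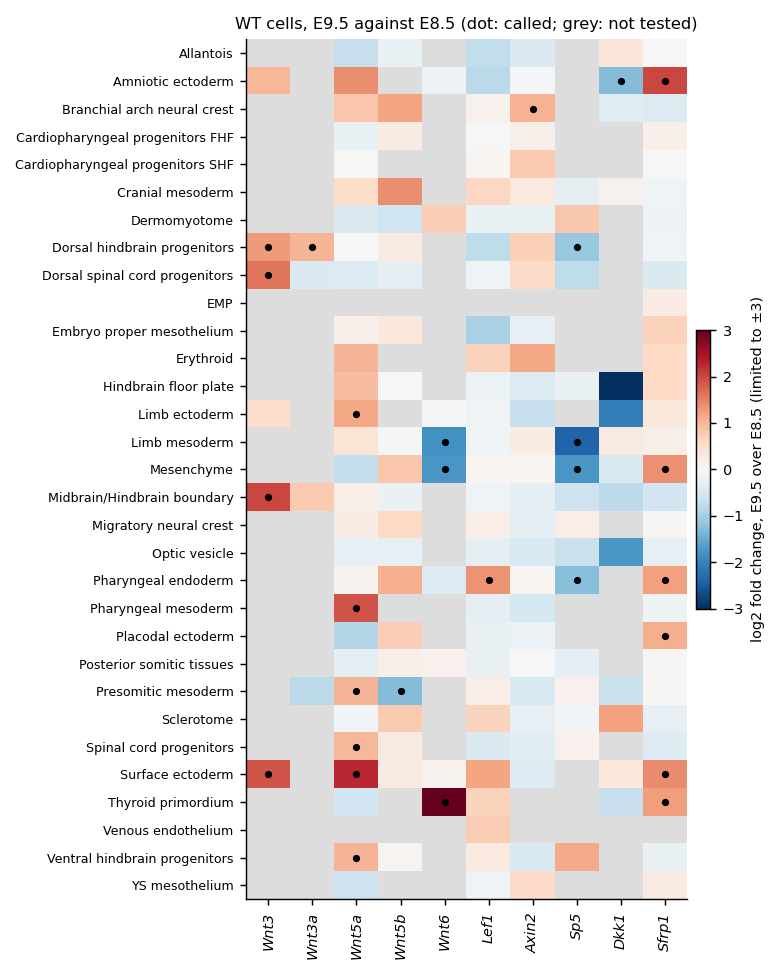
Log2 fold change of E9.5 over E8.5 WT cells for each gene (columns) in each tested cell type (rows), from edgeR, with colour limited to 3 in size, black dots on the 28 called pairs and grey where a pair was not tested. Wnt3, Wnt5a and Sfrp1 carry dots only on rises (4, 6 and 6), and Sp5 only on falls (4).

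A wider list of 82 other Wnt pathway genes was measured in the same way. Within types, null against WT, 1 of 313 tests was called at E7.5 (0.319%), 1 of 804 at E8.5 (0.124%) and 1 of 1566 at E9.5 (0.0639%), where 0.185%, 0.0622% and 0.121% of all pairs were called. These counts moved when 1 library was left out, and most at E7.5 and E8.5. At those stages this leaves a genotype with 1 library, so the counts are not given. At E9.5 they lay between 0 and 3. They were 0 without WT library A, 3 without WT library B and 2 without WT library D. In these 3 fits 0.157%, 0.12% and 0.131% of all pairs were called. At E8.5 Wnt1, the ligand of the midbrain-hindbrain organizer, fell in null cells of the Midbrain/Hindbrain boundary, with 15.7 and 19.2 CPM against 54.7 and 45.0 in WT (log2 fold change -1.59, SE 0.23, adjusted p = 0.0051 by edgeR). That call was kept in all 12 alternatives, of which 4 leave a genotype with 1 library and take its spread from the other genotype. At E9.5 Wnt1 in the same type had 49.3, 28.6, 43.2 and 25.6 CPM in null and 29.4, 47.3 and 31.0 in WT A, B and D, which overlapped (log2 fold change 0.05, interval -0.47 to 0.57), and the difference between the stages was not tested. Of the 10 genes, Axin2 in the Midbrain/Hindbrain boundary at E8.5 had 62.7 and 51.1 CPM in null and 73.9 and 66.3 in WT, and Sp5 had 66.5 and 79.9 in null and 70.8 and 58.5 in WT.

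The other calls of the wider list were Cdx4, a caudal homeobox target, which rose in null Paraxial mesoderm at E7.5 (16.6 and 21.3 CPM against 1.51 and 4.04 in WT, log2 fold change 2.48, SE 0.38, adjusted p = 0.00715 by edgeR), kept in all 12 alternatives with the same limit for 4 of them, and Ccnd1, a cyclin gene, which rose in null cells of the type named EMP at E9.5. Ccnd1 had 154 and 93.0 CPM in null A and D and 48.5, 43.4, 25.9 and 37.0 in WT (log2 fold change 1.69, SE 0.24, adjusted p = 0.0364 by edgeR), a call lost without WT library A, B or D or null library A. Over all cells at E7.5 Wnt7b was called lower in null, with 0.31 and 0 CPM against 21.1 and 11.8, and 97.7% and 93.6% of its WT UMIs came from the ExE ectoderm, the type almost absent from null libraries. The Wnt7b call was lost with no filter on low counts and without null library A. In the mean over types, 2 of 72 list genes (2.78%) were called by limma, where the same fit called 3.99% of all genes and 63.5% lay below 0. Both were lower in null: the repressor Tcf7l1 (-0.36, SE 0.07, adjusted p = 0.00607) and Wnt2 (-0.34, SE 0.09, adjusted p = 0.041).

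In WT cells 28 of 102 tests of the wider list (27.5%, beside 8.55% of all pairs) were called from E7.5 to E8.5, 20 higher and 8 lower, with none among the genes of secretion, transduction and nuclear factors. From E8.5 to E9.5 there were 117 calls in 1306 tests (8.96%, beside 3.2% of all pairs), 79 higher and 38 lower. This split rested in part on the E8.5 libraries. Without E8.5 WT library A, a fit that leaves 1 WT library at E8.5, calls were almost as often lower as higher. The calls by role that follow are from all libraries and were not repeated without either E8.5 WT library. R-spondins, which amplify Wnt signaling, were called higher in 17 and lower in 1 of 52 tests, ligands higher in 13 and lower in 2 of 59, and inhibitors higher in 20 and lower in 5 of 149. Targets were called higher in 7 and lower in 16 of 164 tests, and genes of ligand secretion lower in 4 of 42. The cytoplasmic transduction genes were called in 2 of 266 tests. Medians of the log2 fold change were 1.18 for R-spondins, 0.67 for ligands, 0.49 for inhibitors and -0.01 for targets, beside 0.15 for the whole list.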

How the data were processed

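Single-cell libraries (10x 3′, version 3 chemistry) were made from sorted tdTomato-positive and tdTomato-negative cells of chimeric embryos. The authors deposited a matrix of UMI counts per cell after their quality filter, processed with Cell Ranger on mm10 per the labels, with a table of doublet calls and cell types mapped to an atlas. Of 41832 cells, 3395 called as doublets were left out, as were 596 cells from the WT sort that held a tdTomato UMI. Another 1018 cells from the null sort without such a UMI were kept. UMI counts were summed per library and mapped type with more than 15 cells. Predicted gene models, ribosomal, mitochondrial and globin genes, Xist, Tsix, Y-linked genes and the reporter (8194 of 29453) were left out of the tests. edgeR 4.0.16 (TMM, filterByExpr, robust quasi-likelihood test) was fitted to all remaining genes of a type, with Benjamini-Hochberg adjustment within the type. limma 3.58.1 was fitted to the mean over types of log2(CPM + 1), with a call at an adjusted p below 0.05. DESeq2 1.42.0 was an alternative, and scripts were tested on simulated data. CPM is the UMI count of a gene per 1000000 UMIs of all genes in the same cells. A permutation test over libraries cannot go below p = 0.333 with 2 against 2 libraries or 0.0286 with 4 against 4. Libraries could not be tied to the labelled pools. The study's account names fewer E9.5 embryos than libraries per genotype, so p-values measure the spread between libraries, some of which may share an embryo.

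The 10 genes, the wider Wnt list, the markers and the tests were chosen with earlier results of these data known. Named are all 10 genes, types from their 3 highest in WT per stage, every called pair (or, with none, the 3 pairs with the smallest p at a stage), genes from the 3 most like each (some are not reported here), and called genes of the wider list. Promoter sequences are the 250 bases before RefSeq starts on GRCm38.p6, found for 8 of the genes.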

Additional observations from a re-analysis of the deposited data

Results flagged for a closer look

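In 38 groups of 4 libraries at E9.5, 3 had a highest or lowest library whose gap to the nearest of the others, divided by the whole range, was above Dixon's critical value at the 95% level. Chance gives about 1 in 20 such groups. Wnt3a over all cells was 2.27 CPM in null library D and 3.01, 3.01 and 3.09 in the other null libraries (gap ratio 0.899). Sfrp1 in the Mesenchyme was 585 CPM in null library B and 502, 507 and 516 in the others (0.837). Wnt3a in the Late dorsal forebrain progenitors was 27.7 CPM in WT library A and 8.91, 11.2 and 11.4 in the others (0.870). None of these was called between genotypes, and the cause was not tested.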

How the results depend on the processing

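No paired analysis was possible because the library names in the cell table match no sample title or pool. Counts of calls and other summary values stayed close to the main value in 51 cases and moved in 6 under alternatives other than leaving out a library. Between genotypes within types, no filter on low counts gave 1 call at E7.5 (Wnt6 in Mesenchyme), 3 at E8.5 (Lef1 and Sfrp1 in Erythroid, Sp5 in Thyroid primordium) and 1 at E9.5 (Dkk1 in Allantois), where 0.271%, 0.175% and 0.217% of all pairs were called. At E8.5 DESeq2 gave 1 (0.0681% of all pairs) and a fit over all stages 2 (0.0676%). Leaving out 1 library gave 0 to 3 calls at E7.5 (3 without WT A, 2 without WT B, 1 without null B, with 0.42%, 0.239% and 0.206% of all pairs called), 0 to 5 at E8.5 (5 without null A, 1 without WT B, with 0.412% and 0.111%) and 0 to 1 at E9.5 (without WT A or null B, with 0.157% and 0.132%). When 1 library was left out, calls between WT stages ranged from 5 to 9 for E8.5 against E7.5 (5.93% to 9.08% of all pairs) and from 18 to 32 for E9.5 against E8.5 (1.7% to 3.95%). For E9.5 against E8.5 there were 37 in 306 tests (24 higher and 13 lower, with 2.86% of all pairs called) with no filter on low counts, and 9 in 75 tests (11 types, 4.18%) with more than 50 cells per type. In the wider list the no-filter counts were 1, 5 and 10 between genotypes at the 3 stages, of 534, 1456 and 2841 tests, and 185 of 2341 for E9.5 against E8.5, where 72 of 549 were left with more than 50 cells; a fit over all stages gave 3 at E8.5. Between genotypes no E7.5 type met that limit of cells. Within E7.5, Sfrp1 was called in the mean over types without E7.5 null library A (-0.82), a fit that called 351 genes against 93 with all libraries. Leaving out cells with shared barcodes, chosen after seeing the data, gave 0 calls at each stage. In the mean over types, Wnt3 turned to -0.011 with a pseudocount of 10 CPM and to -0.092 with more than 30 cells, and Wnt5a to 0.0066 with that pseudocount. With only the types shared by E8.5 and E9.5, chosen after seeing the data, Sp5 turned to 0.021. Leaving out 1 library gave -0.038 (without E7.5 WT A) to 0.14 for Wnt3, -0.094 to 0.049 (without E7.5 WT A) for Wnt5a and -0.091 to 0.010 (without E9.5 null D) for Axin2. The cause was not tested. With 2 libraries per group, many pairs had intervals wider than 1 log2 unit, and ligands such as Wnt3a were at or near 0 UMIs in most types.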
